A study of Homo sapiens with 33 samples.

Results

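The regions described here were windows around transcript start sites that carried much H3K4me1 in unedited human embryonic stem cells (ESCs) while H3K4me3 and H3K27me3 stayed at or under the same threshold. A window spanned 2.5 kb either side of an annotated start. Windows on chromosomes 1 to 22 were taken where the level in unedited (WT) ESCs was above 5.35 RPM (reads scaled to the size of the library) per 5 kb window for H3K4me1, at most 5.35 RPM for H3K4me3 and for H3K27me3, and below 5.35 RPM for input chromatin. Of 149487 windows, 3194 met these conditions, and keeping for each gene name the window with the most H3K4me1 left 1681 of 34448 gene names, at 1587 loci that did not overlap. The WT levels of H3K4me1, H3K4me3, H3K27me3 and input therefore chose the windows, and they are given below as a description only.

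All samples came from H9, an established human ESC line grown on feeder cells and flow-sorted for the surface antigen SSEA4. WT is the parental line (EZH2+/+). In Het ESCs (EZH2-/+) CRISPR/Cas9 had disrupted 1 allele of EZH2. Null ESCs (EZH2-/-) were derived by targeting a Het line again after a doxycycline-inducible EZH2 transgene had been added by piggyBac transposition, and were kept without doxycycline. Null+EZH2 ESCs (EZH2-/- +EZH2) are Null cells in which doxycycline switched the transgene on. The edited lines were clonal, so a difference between lines and a difference between clones cannot be told apart. The 33 samples gave 21 ChIP-seq columns (H3K4me1, H3K27ac, H3K27me3, H3K4me3 and input in the 4 genotypes, and EZH2 in WT ESCs alone) and 12 RNA-seq libraries, 3 per genotype. Each histone and input column was the authors' mean over replicate libraries, taken here as 2, the number that the sample descriptions list and the steps of the low values fit, so ChIP-seq differences between genotypes had no replicate check and carry no p-value.

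Monomethylation of histone H3 lysine 4 is deposited largely by KMT2C and KMT2D and marks enhancers, the stretches of DNA that raise transcription of a gene from a distance, as well as the flanks of promoters. Trimethylation of the same lysine marks start sites in use, most of them in CpG islands. Acetylation of H3 lysine 27 (H3K27ac) separates active enhancers from those that carry H3K4me1 alone, which are called primed. EZH2 is the catalytic subunit of Polycomb repressive complex 2, which methylates the same lysine 27. A residue cannot be acetylated and methylated at once.

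The libraries were checked first. EZH2 RNA was 63.8 ± 4.56 RPM (SD, n = 3) in WT, 51.2 ± 4.95 RPM in Het, 9.95 ± 1.44 RPM in Null and 304 ± 70.6 RPM in Null+EZH2 ESCs, so the transgene gave more EZH2 RNA than the parental line had. The summed RNA of the 8 ESC markers was 2357 to 2978 RPM in WT, 3191 to 3979 RPM in Het, 3730 to 4245 RPM in Null and 3495 to 4140 RPM in Null+EZH2 libraries. The sum hides opposite directions. In Null relative to WT ESCs 5 of the 8 rose and 1 fell in the test described below, against 12.6% and 18.8% of all genes tested. SOX2 fell, from 224 ± 23.3 RPM in WT to 109 ± 23.6 RPM in Null ESCs (log2 difference -1.05, adjusted p = 0.00263 in limma). The WT H3K4me3 column was the shallowest, at 3.43 M reads per library, so that a window at the threshold held 18.3 reads, against 61.5 reads for H3K4me1 in the same cells. Input chromatin beyond 40 Mb of chromosome 17 was lower in Null and in Null+EZH2 than in WT ESCs (median log2 differences -0.16 and -0.15), and 127 of the 1681 windows (7.56%) lay there, against 3.21% of all gene names.

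The sequences at the centres of 3 windows are given as examples, and the CpG content of all the windows follows below. The 300 bases around the annotated start (150 before it) are printed for 3 of the 10 windows with the most H3K27ac in WT ESCs, taken from those without a UTR or coding base in GENCODE. They come from GRCh38, run 5′ to 3′ along the strand of the transcript, and have each CpG in capitals. Among the 10, this choice left out the centres in ZNF423 and NDST1, which held 22 and 10 CpGs.
LMNA, chr1:156122992-156123291, plus strand: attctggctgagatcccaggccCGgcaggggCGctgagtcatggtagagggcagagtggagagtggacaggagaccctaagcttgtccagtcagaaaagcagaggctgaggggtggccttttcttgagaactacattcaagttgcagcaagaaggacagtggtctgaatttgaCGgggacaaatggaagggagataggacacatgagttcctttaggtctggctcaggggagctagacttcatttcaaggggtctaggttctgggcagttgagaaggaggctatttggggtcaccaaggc
RP11-7F17.4, chr14:77086297-77086596, minus strand: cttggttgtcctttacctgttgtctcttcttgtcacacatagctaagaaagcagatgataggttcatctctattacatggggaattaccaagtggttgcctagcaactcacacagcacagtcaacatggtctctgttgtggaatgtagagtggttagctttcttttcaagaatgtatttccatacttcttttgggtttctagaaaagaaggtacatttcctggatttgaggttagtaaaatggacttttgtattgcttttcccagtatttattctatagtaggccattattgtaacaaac
CTB-186G2.4, chr19:38693457-38693756, minus strand: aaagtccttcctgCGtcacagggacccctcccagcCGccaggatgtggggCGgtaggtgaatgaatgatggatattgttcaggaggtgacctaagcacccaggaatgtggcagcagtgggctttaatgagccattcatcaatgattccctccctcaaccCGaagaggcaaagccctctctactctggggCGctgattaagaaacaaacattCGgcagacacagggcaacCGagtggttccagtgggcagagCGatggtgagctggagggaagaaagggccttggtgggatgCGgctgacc
The centre in LMNA, the gene of the nuclear lamins A and C, held 3 CpGs at a GC content of 53.3%. This start was internal to the gene, 40569 bp downstream of the first start, and 150 of the 300 bases were exonic. The lncRNA RP11-7F17.4 had 0 CpGs at 37.7% GC. The lncRNA CTB-186G2.4 starts within ACTN4 on the other strand and had 9 CpGs at 56% GC.

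Most of the windows were poor in CpG. The ratio of observed to expected CpG in the central 300 bases had a median of 0.253 (interquartile range 0.165 to 0.369), against 0.813 in the 12432 windows with H3K4me3 and no H3K27me3, 0.452 in the 1435 windows with H3K27me3 and no H3K4me3, and 0.229 in the 15821 windows without a mark. Each of these classes also kept a single window per gene name, with the most of its mark, or of H3K4me1 for those without a mark. Gene names in the last class had no window above the threshold in H3K4me1, H3K4me3 or H3K27me3. A ratio above 0.6, the usual mark of a CpG island, was found in 73 of the 1681 (4.34%), in 75.8% of the H3K4me3 windows, and in 42.8% of all windows. The median number of CpGs per centre was 5, against 25 in the H3K4me3 windows. GC content over the whole 5 kb did not follow the CpG ratio: it had a median of 51.4%, against 52.0% in the H3K27me3 windows, 49.8% in the H3K4me3 windows and 43.3% in the windows without a mark. The ratio was similar wherever in the gene the window lay, with a median of 0.263 for starts more than 5 kb downstream of the first start of the gene and of 0.247 for the others.

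Short motifs were counted in the central 300 bases on both strands. The GC box GGGCGG, bound by SP1-type factors, was in 309 windows (18.4%) against 38.9% of all windows. CCAAT was in 449 (26.7%) against 31.7%, and TATAAA in 160 (9.52%) against 11.1%. The octamer (ATGC followed by AAAT), recognised by POU factors such as POU5F1, was in 32 windows (1.90%) against 1.20%, and in 1.79% of the windows without a mark. The SOX motif CATTGT was in 212 (12.6%) against 10.2%, and in 16.1% of the windows without a mark. The TEAD motif CATTCC was in 293 (17.4%) against 13.3%, and in 16.5% of the windows without a mark. The windows without a mark held the GC box less often than the H3K4me1-high windows, and CCAAT and TATAAA more often. The GC box was thus scarcer than in all windows, but more frequent than in the windows without a mark. The GC box holds a CpG, and a match says only that the letters are there.

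These starts were often internal. Of the 3194 windows that met the conditions, 54.8% lay more than 5 kb downstream of the first start of their gene, against 36.6% of all 149487 windows. Of the 1681 kept, 857 (51.0%) lay there and 667 (39.7%) lay within 100 bp of that first start. The windows that stand for all gene names were mostly at the first start (69.9% within 100 bp), so their 13.6% is not set against the 51.0%. The gene had an H3K4me3 window elsewhere in 839 cases (49.9%) and an H3K27me3 window elsewhere in 369 (22%), and it had neither in 821 (48.8%), against 48.3% of all gene names. The median distance to the nearest H3K4me3 window was 29358 bp, and 396 windows (23.6%) lay within 10 kb of one. By gene type 1110 (66.0%) belonged to protein-coding genes and 491 (29.2%) to lncRNA genes, against 53.5% and 39.2% of all names. Chromosome 17 held 187 of them (11.1%).

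The windows with the most H3K4me1 in WT ESCs were chosen on that value. The first was the start of RP11-75C10.9, an lncRNA antisense to SEPT9, at 12.6 RPM in WT, 12.2 in Het, 12.8 in Null and 11.1 RPM in Null+EZH2 ESCs. The window in SSBP3, which encodes a single-stranded DNA-binding partner of LDB1, had 11.5, 10.4, 11.6 and 13.6 RPM in the same order. LMNA had 11.4, 11.9, 15.5 and 13.9 RPM, and IGDCC3, an immunoglobulin superfamily gene, had 11.2, 10.6, 12 and 11.3 RPM. In none of these 4 was Null lower than WT in H3K4me1. SAP30BP, at 11.4, 11.2, 7.47 and 9.77 RPM, and SLC9A3R1, which encodes the scaffold protein NHERF1, at 10.9, 10.3, 5.6 and 7.93 RPM, were lower in Null ESCs. Both lie on chromosome 17 beyond 40 Mb, and RP11-75C10.9, which was not lower, lies on that chromosome too. Over the 127 windows beyond 40 Mb the median log2 difference of Null from WT in H3K4me1 was 0.005, against 0.20 in the other windows. The other 4 of the top 10 were MSI2, RP11-394B2.5, LINC00969 and SEPT9, and 5 of the 10 lie on chromosome 17. At the low end the last windows inside the threshold were those of RP11-426J5.3, RP11-416A14.1 and TMCO4, at 2.4202, 2.4204 and 2.4204 log2 RPM, and the first outside were those of BAI2, CYP46A1 and DKK3, each at 2.4196 log2 RPM.

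H3K27ac was not used to choose the windows. Its median was 2.95 RPM in WT ESCs, against 2.44 RPM in the H3K4me3 windows, 1.67 RPM in the H3K27me3 windows, 2.00 RPM in the windows without a mark and 2.14 RPM over all gene names. In the same 1681 windows H3K4me1 had a median of 6.23 RPM and input 1.51 RPM. In WT ESCs 7 of the 1681 windows had H3K27ac above 5.35 RPM, which is 0.416% (95% Wilson interval 0.202% to 0.857%, counting error only), against 0.142% of all gene names. Few windows of any class passed this level in WT ESCs: 0.185% of the H3K4me3 windows, 0.348% of the H3K27me3 windows and 0.0442% of those without a mark. A value below it is therefore not an absence of acetylation. Of the 1681 windows 32 (1.90%) passed in Het, 210 (12.5%) in Null and 105 (6.25%) in Null+EZH2 ESCs, against 0.694%, 4.06% and 2.57% of all gene names. In the H3K4me3 windows these shares were 1.62%, 8.66% and 6.71%, so an excess over all gene names was not particular to the 1681 windows. They were 0.279%, 2.16% and 0.627% in the H3K27me3 windows, and 0.0758%, 0.803% and 0.234% in the windows without a mark. EZH2 itself had a median of 0.204 RPM in its single WT library.

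The 10 windows with the most H3K27ac in WT ESCs were led by TTC7A, which encodes a scaffold protein of the complex that recruits phosphatidylinositol 4-kinase to the plasma membrane, at 6.83 RPM in WT, 7.98 in Het, 12.3 in Null and 8.53 RPM in Null+EZH2 ESCs. RP11-7F17.4 had 5.85, 6.54, 9.67 and 6.82 RPM in that order, so both windows were highest in Null ESCs. LMNA had 5.36, 6, 9.29 and 10.0 RPM and was as high with the transgene as without it. CTB-186G2.4 had 5.6, 5.47, 4.87 and 6.07 RPM, and NDST1, which encodes a heparan sulphate N-sulphotransferase, had 5.43, 4.54, 3.96 and 5.41 RPM, both lowest in Null ESCs. GPRIN2, with 6.78, 4.87, 6.94 and 5.86 RPM, ZNF423, TRIM66, LINC00969 and AMPD2 made up the rest. No single direction held for the 10.

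Because H3K4me1 in WT ESCs chose the windows, part of any difference from WT was set by that choice. The comparison of Null with Null+EZH2 ESCs, which have the same derivation, used no column of the rule. Null+EZH2 ESCs had doxycycline as well as EZH2 RNA above the WT level. Effects of doxycycline, of EZH2 and of its excess therefore cannot be told apart. Differences are given as log2(RPM + 0.1), and the interval of a median is the 95% binomial interval over windows, which are not replicates of a genotype.

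H3K4me1 was nearly equal in Null and Null+EZH2 ESCs. Its median was 6.23 RPM in WT, 6.55 in Het, 7.25 in Null and 7.02 RPM in Null+EZH2 ESCs. The median difference of Null from Null+EZH2 was 0.05 (0.04 to 0.06), against 0.11 over all gene names and 0.17 and 0.26 in the H3K4me3 and H3K27me3 windows. Relative to gene names outside the 1681 it was -0.06, so its sign depended on the scaling. No window was higher by 1 or more (0.27% of all gene names were), and 3 were lower by 1 or more (1.05% of all gene names were). In the H3K4me3 windows these shares were 0.105% and 0.0161%, and in the windows without a mark 0.341% and 2.19%. Against WT 22 windows (1.31%) were lower by 1 or more in Null ESCs, against 4.19% of all gene names, and 5 of the 22 lay on chromosome 17 beyond 40 Mb. In those classes 0.113% and 8.36% were lower by 1 or more than in WT ESCs. Windows without a mark had a median H3K4me1 of 1.91 RPM in WT ESCs, and counting error is larger at low levels. The shares over all gene names are therefore no measure of stability in the 1681 windows. The class itself was met again, by the thresholds applied in each genotype, in 1068 windows (63.5%) of Het, 1241 (73.8%) of Null and 1214 (72.2%) of Null+EZH2 ESCs, and by all 4 genotypes in 850.

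The 3 windows with H3K4me1 lower by 1 or more in Null than in Null+EZH2 ESCs were those of NUP214, UBE4B and RP11-688G15.3. NUP214 encodes a nucleoporin, and its window (chr9:131142202-131147202), 19141 bp inside the gene, had 6.59 RPM in WT, 4.67 in Het, 0.870 in Null and 3.60 RPM in Null+EZH2 ESCs, a difference of -1.93 (counting interval -2.59 to -1.27). Its input was 2.04 RPM in Null and 1.93 RPM in Null+EZH2 ESCs. H3K4me1 of the NUP214 window was thus below input in Null ESCs and above it in the other lines. UBE4B, which encodes a ubiquitin ligase, had 1.30 against 2.77 RPM (-1.04). RP11-688G15.3 had 1.65 against 3.43 RPM (-1.01), and its input was lower too, at 0.915 against 1.51 RPM. MPRIP, which encodes a myosin phosphatase-binding protein, at 2.12 against 3.96 RPM (-0.87), and NOMO3, at 2.56 against 4.70 RPM (-0.86), came next. NOMO3 has near-identical copies, between which reads cannot be placed with certainty.

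The windows with the largest positive differences were smaller in effect. ANKFN1 had 6.01 RPM in Null against 3.81 RPM in Null+EZH2 ESCs (0.64, counting interval 0.31 to 0.98). GPR162, an orphan receptor gene, had 11.2 against 7.54 RPM (0.56), and its H3K27me3 was 1.25 against 10.9 RPM. CD7, a T cell surface antigen gene, had 6.97 against 4.73 RPM (0.55), with H3K27me3 of 0.41 against 6.28 RPM. LINC00336 had 8.53 against 5.75 RPM. In GPR162 and CD7 H3K27me3 of Null+EZH2 ESCs was above the 4.11 and 2.419 RPM of WT ESCs, a level that the rule had capped at 5.35 RPM. Over the 1681 windows H3K27me3 was lower in Null+EZH2 than in WT ESCs in 76.4% (median difference -0.34).

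H3K27me3 in these windows was low by choice in WT ESCs but not absent. Its median was 1.77 RPM in WT, 1.41 in Het, 0.686 in Null and 1.31 RPM in Null+EZH2 ESCs, while input stayed between 1.46 and 1.63 RPM. The number of windows with more H3K27me3 than input was 1021 in WT, 719 in Het, 51 in Null and 664 in Null+EZH2 ESCs. The median difference of Null from Null+EZH2 was -0.83 (-0.88 to -0.78), against -0.54 over all gene names. It was lower by 1 or more in 709 windows (42.2%), against 34.4% of all gene names. In the 1435 windows chosen for H3K27me3 the median difference was -2.96.

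H3K27ac was modestly higher in Null than in Null+EZH2 ESCs. Medians were 2.95 RPM in WT, 3.24 in Het, 3.87 in Null and 3.30 RPM in Null+EZH2 ESCs. The median difference was 0.22 (0.20 to 0.25), against 0.14 over all gene names, 0.11 in the H3K4me3 windows and 0.57 in the H3K27me3 windows, and 1174 windows (69.8%) were higher. Centred on the gene names outside the 1681 windows it was 0.0829. Large differences were few: 18 windows (1.07%) were higher by 1 or more, against 3.11% of all gene names, and 6 (0.357%) were lower by 1 or more, against 2% of all gene names. In the H3K4me3 windows 0.780% were higher and 0.225% lower by 1 or more. These shares were 0.632% and 3.87% in the windows without a mark, and 12.5% and 0.279% in the H3K27me3 windows. Levels and counting error differ between the classes, so the low shares are not particular to the 1681 windows. Against WT, 106 windows (6.31%) were higher by 1 or more in Null and 13 (0.773%) in Null+EZH2 ESCs, against 6.8% and 1.4% of all gene names. Both of these share the WT column. H3K4me3 had a median difference of -0.14 between Null and Null+EZH2, and input one of -0.09, both of the opposite sign to the H3K27ac difference.

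**Figure D1:**
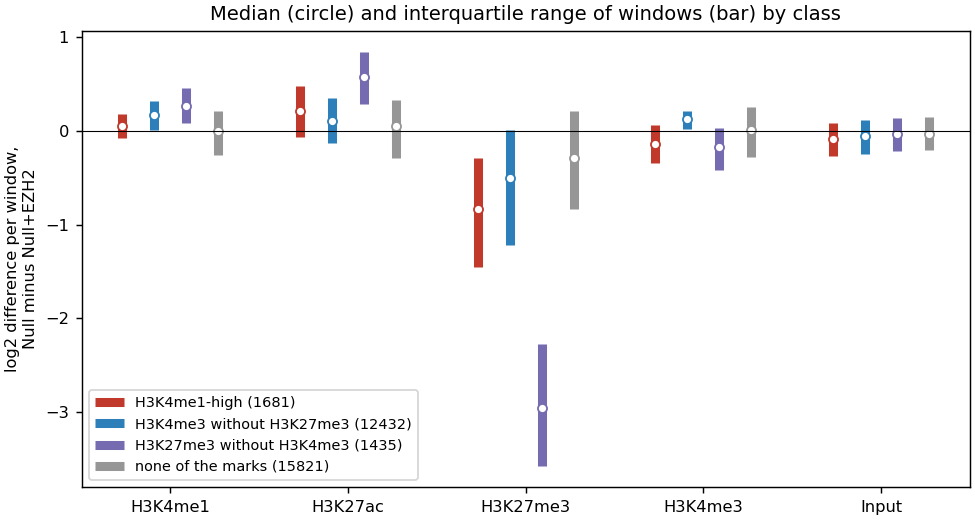
Difference of Null from Null+EZH2 ESCs on the log2 scale (y axis) for the 4 marks and input (x axis) in the H3K4me1-high windows and the 3 other classes; circles are medians over windows and bars the interquartile range. In the 1681 windows the medians were 0.05 for H3K4me1, 0.22 for H3K27ac and -0.83 for H3K27me3.

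The size of the H3K27ac difference followed how much H3K27me3 a window had in WT ESCs, although every window was at or below the threshold. The windows were split into quartiles by that level, at 0.233 to 1.20, 1.20 to 1.77, 1.77 to 2.55 and 2.55 to 5.35 RPM. The median H3K27ac difference was -0.08 (-0.12 to -0.03), 0.10 (0.05 to 0.15), 0.36 (0.31 to 0.39) and 0.47 (0.44 to 0.50) in this order, and H3K27ac was higher in Null ESCs in 40.6%, 60.7%, 84.0% and 94.0% of the windows. The quartile with the least H3K27me3 thus had slightly less H3K27ac in Null than in Null+EZH2 ESCs, and the quartile with the most had more in nearly all windows. H3K4me1 moved from -0.03 through 0.03 and 0.08 to 0.12, and input was at -0.10, -0.09, -0.07 and -0.08. Over windows, Spearman's rho between the H3K27ac difference and the WT H3K27me3 level was 0.58 (n = 1681), against 0.51 in the H3K4me3 windows, 0.39 in the windows without a mark and 0.18 in the H3K27me3 windows. The WT H3K27me3 level was a column of the rule, and each class covers its own range of it. That range ended at 5.35 RPM in all classes but the H3K27me3 windows, which lay above it. The sizes of rho can therefore not be set against each other. The windows share libraries and depth, and the values are a description.

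**Figure D2:**
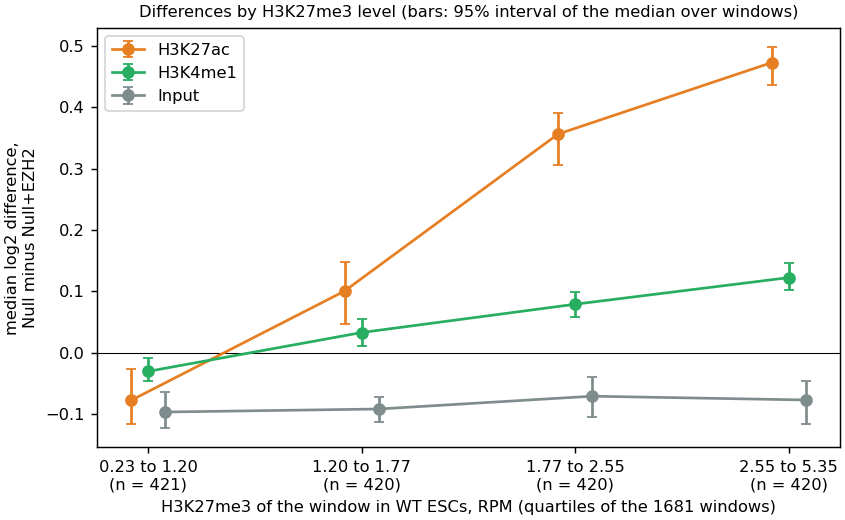
Median log2 difference of Null from Null+EZH2 ESCs (y axis) in H3K27ac, H3K4me1 and input for quartiles of the 1681 windows by their H3K27me3 level in WT ESCs (x axis, RPM); error bars are 95% binomial intervals of the median over windows. The H3K27ac points climb from -0.08 to 0.47 while input stays between -0.10 and -0.07.

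The 18 windows with H3K27ac higher by 1 or more had little H3K27me3 left in Null ESCs. Their H3K27me3 had a median of 3.51 RPM in Null+EZH2 and 0.665 RPM in Null ESCs, and 17 of them belonged to the quartile with the most H3K27me3. The first was the start of SLC38A8 (chr16:84040136-84045136), which encodes an amino acid transporter, with H3K27ac at 2.45 RPM in WT, 2.54 in Het, 5.15 in Null and 1.90 RPM in Null+EZH2 ESCs (difference 1.39, counting interval 0.96 to 1.83), and H3K27me3 at 0.868 against 3.70 RPM. IQSEC3 (chr12:166478-171478), which encodes a guanine nucleotide exchange factor of inhibitory synapses, had 4.49 against 1.94 RPM (1.17, 0.72 to 1.62), with H3K27me3 at 0.458 against 7.09 RPM. Its WT H3K27ac was 3.50 RPM, so the transgene line was low as well as the Null line high. MIR202HG, the host gene of miR-202, had 3.82 against 1.65 RPM (1.16), SEMA5B, a transmembrane semaphorin gene, 5.13 against 2.28 RPM (1.14), and AP000344.3 4.84 against 2.17 RPM (1.12). RNA of the first 3 genes was scarce, at 1 to 10 reads per library for SLC38A8, 17 to 58 for IQSEC3 and 0 to 2 for MIR202HG.

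The 6 windows with less H3K27ac in Null ESCs had little H3K27me3 in either line, with medians of 0.908 and 0.921 RPM. PCBP2, an RNA-binding protein gene, had 0.778 RPM of H3K27ac in Null against 2.17 RPM in Null+EZH2 ESCs (-1.37). TPM3, a tropomyosin gene, had 1.52 against 3.57 RPM (-1.18), and CMTR1, which encodes an mRNA cap methyltransferase, had 1.89 against 4.29 RPM (-1.14). SEMA6A, a semaphorin gene, had 1.18 against 2.57 RPM (-1.06), and RP11-494M8.4 1.87 against 3.87 RPM (-1.01).

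RNA was measured for the genes of all 1681 windows, matched by identifier. The median in WT ESCs was 0.505 RPM per kb of exon, against 0.169 RPM per kb for all gene names, and 941 genes (56.0%) reached 1 RPM, against 43.4%. The test was limma on log2(RPM + 0.1) over 20608 genes that averaged 0.1 RPM or more, with Benjamini-Hochberg adjustment, and 1209 (71.9%) of the genes with an H3K4me1-high window passed that filter. A gene whose adjusted p was under 0.05 was called. The libraries are bulk, so fewer cells of a type and less RNA per cell cannot be told apart. A start inside a gene may not be the one that its RNA came from.

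In Null relative to Null+EZH2 ESCs, 53 of the 1209 genes (4.38%) rose, against 2.63% of all genes tested, and 8 (0.662%) fell, against 0.524%. With the library number as a block, 117 rose and 48 fell, among them the 53 and the 8, against 6.19% and 3.21% of all genes tested. The count of genes that rose dropped when almost any single library was left out. It was 6 without Null replicate 2 (0.597% of all genes tested) and 12 without Null replicate 3 (187 of all genes tested). Without Null+EZH2 replicates 1, 2 and 3 in turn it was 28, 10 and 17 (281, 205 and 239 of all). Only without Null replicate 1 was it higher, at 69 (644 of all). The count of genes that fell was 2 without Null+EZH2 replicate 2 (0.146% of all genes tested) and also 2 without Null+EZH2 replicate 3 (23 of all). The median difference was 0.13 for the 1209 genes and 0.02 for all genes tested. Genes with an H3K27me3 window elsewhere gave 23 of 361 (6.37%), against 7.13% of all tested genes with such a window. Genes without one gave 30 of 848 (3.54%), against 1.20% of all such genes.

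The 53 genes that rose had windows with a median H3K27ac difference of 0.45, above 0 in 47 of 53 (88.7%), while over all 1209 tested it was 0.18 and above 0 in 66.3%. Their median H3K27me3 difference was -1.04. In the windows of the 8 genes that fell the median H3K27ac difference was 0.16, above 0 in 5 of 8. The windows of all 8 genes that fell lay more than 5 kb downstream of the first start. Of the genes that rose, 34 had such a window (of 819 tested, 4.15%) and 19 did not (of 390 tested, 4.87%).

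Marker RNA of other cell types also differed between these lines. The summed RNA of 13 fibroblast and feeder-type markers was 480 to 1117 RPM in Null and 452 to 473 RPM in Null+EZH2 libraries, and 5 of the 13 rose. The 6 differentiated endoderm markers summed to 59.97 to 94.9 against 14.0 to 39.4 RPM, with 1 of 6 rising. The 10 trophectoderm and amnion markers summed to 13.0 to 59.7 against 5.25 to 9.27 RPM, with 3 of 10 rising and CGA, CGB5 and KRT23 under 0.1 RPM in all libraries. The 7 neural markers, at 480 to 541 against 305 to 433 RPM, had no gene that passed the test in either direction, and with the block 2 rose and 1 fell. The part of these markers in the RNA differences below was not tested.

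Of the 53 genes that rose, 33 averaged 1 RPM or more with libraries of both lines fully apart, and the 5 with the largest change are given. Called or not, 20.4% of the 1209 genes had all Null libraries above all Null+EZH2 libraries, against 13.5% of all genes tested. MEIS1, a homeobox partner of HOX proteins, had 3.03, 4.62 and 3.15 RPM in Null and 0.360, 0.268 and 0.719 RPM in Null+EZH2 ESCs, a log2 fold change of 2.81 (SE 0.55, adjusted p = 0.0182 in the limma fit). It was not above the parental line, since the WT libraries had 4.71, 9.53 and 1.62 RPM and the Het libraries 0.514, 0.151 and 0.427 RPM. MEIS1 was thus high in WT and Null ESCs and low in the other lines. Its window, 75475 bp inside the gene, had H3K27ac of 3.35 RPM in Null against 2.73 RPM in Null+EZH2 ESCs and H3K27me3 of 0.47 against 1.59 RPM.

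AADACL3, which belongs to the arylacetamide deacetylase family, had 2.90, 5.27 and 3.62 RPM in Null against 0.746, 0.590 and 0.200 RPM in Null+EZH2 ESCs (2.81, SE 0.41, adjusted p = 0.00376 in limma), and at most 0.0864 RPM in the other 6 libraries. The lines did not overlap. PLXNA2, a semaphorin receptor gene, had 19.3, 37.4 and 18.5 against 6.30, 2.81 and 2.68 RPM (2.68, SE 0.62, adjusted p = 0.0369 in limma), while Het libraries reached 19.5 RPM. CST1, a secreted cystatin gene, had 97.4, 178 and 171 against 25.8, 24.5 and 38.8 RPM (2.30, SE 0.52, adjusted p = 0.0335 in limma), and its WT libraries had 11.5, 35.5 and 29.5 RPM. For CST1 the libraries with EZH2 overlapped each other and the Null libraries stood above them all.

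ERVH48-1, an endogenous retroviral envelope gene whose product suppressyn blocks cell fusion in the placenta, had 121, 153 and 316 RPM in Null and 27.5, 40.5 and 38.3 RPM in Null+EZH2 ESCs (2.36, SE 0.48, adjusted p = 0.0207 in limma). The WT libraries had 2.29, 4.03 and 1.86 RPM, and the Het libraries 3.06, 13.0 and 9.13 RPM. Both lines that had lost the endogenous alleles were therefore above the others. H3K4me3 of its window went from 4.23 RPM in WT through 4.94 in Het to 15.1 in Null and 7.96 RPM in Null+EZH2 ESCs, whereas H3K4me1 was 6.05, 6.69, 5.55 and 6.32 RPM. The start of ERVH48-1 was thus above the H3K4me3 threshold in both lines in which its RNA was high. Of these 5, AADACL3 kept an adjusted p under 0.05 in all 11 alternatives tried, and MEIS1, ERVH48-1, PLXNA2 and CST1 lost it in 5, 6, 7 and 7 of 11.

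The 8 genes that fell all met the same conditions, and the 5 with the largest change are given. Called or not, 8.77% of the 1209 genes had all Null libraries below all Null+EZH2 libraries, against 9.7% of all genes tested. GALNT16, which encodes an enzyme that starts O-linked glycosylation, had 2.94, 1.80 and 2.52 RPM in Null and 7.38, 7.61 and 7.99 RPM in Null+EZH2 ESCs (-1.65, SE 0.25, adjusted p = 0.0043 in limma), and 14.9, 11.1 and 11.3 RPM in WT ESCs. C16orf89 had 0.792, 0.507 and 0.772 against 2.11, 1.85 and 2.16 RPM (-1.46, SE 0.23, adjusted p = 0.00608 in limma), and 2.91, 2.46 and 2.86 RPM in WT ESCs. In both genes the transgene line stood between Null and WT ESCs without overlap, and the call held in all 11 alternatives. FEZ1, which acts in axon outgrowth, had 18.5, 15.5 and 20.3 against 39.5, 44.4 and 63.4 RPM (-1.41, SE 0.32, adjusted p = 0.0333 in limma), and 98.5, 63.2 and 98.4 RPM in WT ESCs. LHPP, a phosphatase gene, had 4.96, 3.81 and 6.35 against 9.49, 10.3 and 15.0 RPM (-1.19, SE 0.29, adjusted p = 0.0451 in limma). FEZ1 lost its call in 8 of the 11 alternatives and LHPP in 10. Reads were counted without strand, and GALNT16, C16orf89 (with ALG1), FEZ1 and LHPP overlap genes of the other strand, so reads of the partners cannot be told apart.

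SEMA5B fell as well, at 6.21, 3.75 and 3.47 RPM in Null and 10.8, 8.87 and 11.7 RPM in Null+EZH2 ESCs (-1.24, SE 0.30, adjusted p = 0.0409 in limma, lost in 8 of 11 alternatives). Its WT libraries had 45.1, 30.7 and 29.4 RPM. This is the gene whose window, 52471 bp downstream of the first start, had H3K27ac higher by 1.14 in Null ESCs, so RNA and acetylation at this internal start went in opposite directions.

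Against WT ESCs many more genes differed. In Null ESCs 207 of the 1209 genes rose (17.1%) and 267 fell (22.1%), against 12.6% and 18.8% of all genes tested, and with the block 268 rose and 360 fell, against 17.3% and 28% of all genes. The median of all genes tested was -0.13 in this comparison, and after rescaling by the median ratio 243 rose and 217 fell (15.9% and 14.2% of all genes), so the balance of directions depended on the scaling. In Null+EZH2 ESCs 49 rose (4.05%) and 144 fell (11.9%), against 3.4% and 6.9% of all genes tested, with the block 93 rose and 289 fell (6.26% and 16.1% of all genes), and after rescaling 72 rose and 105 fell (4.61% and 4.42% of all genes). The median of all genes tested was -0.15 there, and that of the 1209 genes -0.23. On chromosome 17 beyond 40 Mb 20 of 94 tested genes with a window fell in Null+EZH2 ESCs (21.3%), and 12.4% of all tested genes there did. These comparisons share the WT libraries.

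A single disrupted allele went with few called differences. In Het relative to WT ESCs 2 of the 1209 genes (0.165%) rose, against 0.18% of all genes tested, and 21 (1.74%) fell, against 0.966%. With the block these were 18 and 49, against 0.718% and 2.16% of all genes. MEIS1 fell by 3.31 on the log2 scale (adjusted p = 0.0129 in limma), and MEIS2, its paralogue, by 3.99 (adjusted p = 0.00894 in limma).

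Genes of the pathways that keep ESCs pluripotent were followed through lists. Of 37 pluripotency genes with a window, 3 were among the 1681, namely DNMT3B, ESRRB and PODXL, and of the 37 tested 5 rose and 0 fell in Null relative to Null+EZH2 ESCs, and 8 and 3 with the block. ESRRB, an orphan nuclear receptor of the naive state, rose (1.29, adjusted p = 0.0223 in limma) but was at only 0.327 to 0.469 RPM in Null and 0.0804 to 0.120 RPM in Null+EZH2 libraries. H3K27ac of its window, 96788 bp inside the gene, was 5.47 against 2.65 RPM, and H3K27me3 was 0.54 against 1.93 RPM. DNMT3B, a de novo DNA methyltransferase gene, differed by 0.07 (adjusted p = 0.942 in limma). PODXL, which encodes the carrier of the TRA-1-60 antigen, fell in Null relative to WT ESCs (-0.82, adjusted p = 0.00116 in limma).

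Of 22 genes of Nodal and Activin signalling, the pathway that maintains human ESCs through SMAD2 and SMAD3, LEFTY2, SMAD3 and SMAD7 were among the 1681, and none of the 22 passed the test in Null relative to Null+EZH2 ESCs. With the block 3 of the list rose and 1 fell, none of them among the 1681. LEFTY2, a secreted Nodal inhibitor, had 401, 831 and 551 RPM in Null, 128, 478 and 96.5 RPM in Null+EZH2, and 8.37, 25.9 and 14.0 RPM in WT ESCs. The first 2 groups overlapped (1.65, adjusted p = 0.379 in limma, 0.0617 with the block), and Null rose above WT without overlap (5.29, adjusted p = 0.000982 in limma). Its window had H3K4me1 of 5.43, 8.25, 9.72 and 8.50 RPM and H3K4me3 of 4.61, 7.15, 14.6 and 9.31 RPM in WT, Het, Null and Null+EZH2 ESCs. SMAD7, the inhibitory SMAD, had 33.1, 30.8 and 32.2 RPM in Null, 20.3, 17.6 and 9.63 RPM in Null+EZH2 and 5.73, 5.33 and 5.29 RPM in WT ESCs. Its groups did not overlap, but the difference between the first 2 missed the threshold (1.08, adjusted p = 0.198 in limma), and that from WT passed it (2.53, adjusted p = 0.000834 in limma).

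Of 19 FGF and ERK genes with a window 4 were among the 1681, DUSP5, FGFR1, FGFR2 and FGFR4, and none of the 4 passed in Null relative to Null+EZH2 ESCs (1 of 20 in the list rose). With the block 6 of the list rose and 1 fell. DUSP5, an ERK phosphatase gene, rose relative to WT (2.22, adjusted p = 0.000162 in limma), and the receptor genes FGFR1 (-1.07, adjusted p = 0.000502 in limma) and FGFR2 (-0.78, adjusted p = 0.00343 in limma) fell. In Null relative to Null+EZH2 ESCs FGFR2 (-0.62, adjusted p = 0.00652 against 0.0614 without it) and DUSP5 (1.02, adjusted p = 0.02 against 0.0686) passed in limma with the block. Of 28 WNT genes, AXIN2, CTNNB1, LRP5, TCF7L1 and WNT8A were among the 1681, and none of the 5 passed, while 3 of the list rose and 1 fell. With the block 8 rose and 2 fell, among them WNT8A (1.39, adjusted p = 0.0445 in limma) and TCF7L1 (-0.59, adjusted p = 0.0315 in limma), a transcription factor gene of the pathway. WNT8A, a ligand gene, fell relative to WT in Het (-3.17, adjusted p = 0.00347 in limma) and in Null+EZH2 ESCs (-2.34, adjusted p = 0.00451 in limma).

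Of 23 mesendoderm and mesoderm regulators MEIS1 and MEIS2 were among the 1681, and 8 of the list rose in Null relative to Null+EZH2 ESCs, MEIS1 among them (16 with the block). MEIS2 fell relative to WT in Null (-2.97, adjusted p = 0.00366 in limma) and in Null+EZH2 ESCs (-4.03, adjusted p = 0.00227 in limma), as it did in Het ESCs. None of 12 endoderm regulators and none of 20 neural and ectoderm regulators had such a window, and 4 and 1 of these lists rose in the same comparison. With the block 8 endoderm regulators rose, and 1 neural and ectoderm regulator rose and 3 fell. Of 22 enzymes of H3K4 monomethylation and enhancer acetylation, KDM1B, a demethylase gene, was among the 1681, and no gene of that list passed the test. With the block KDM1B fell in Null relative to Null+EZH2 ESCs (-0.59, adjusted p = 0.047 in limma). KDM1B fell relative to WT ESCs (-1, adjusted p = 0.00278 in limma). LMNA, the gene with much H3K4me1 and H3K27ac shown above, rose in Null relative to WT (1.26, adjusted p = 0.00079 in limma), and its difference from Null+EZH2 ESCs was 0.69 (adjusted p = 0.0937 in limma, 0.0478 with the block).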

How the data were processed

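RNA-seq and ChIP-seq of H9 ESCs were deposited as log2 RPM. The authors trimmed reads with Trim Galore 0.4.0, aligned them to GRCh38 with Bowtie2 2.2.5 (ChIP-seq) or TopHat2 2.0.12 (RNA-seq), as the submitters' processing notes list, and counted them in SeqMonk without regard to strand for RNA. In the ChIP-seq table reads without duplicates, counted 2.5 kb to each side of a start site, were scaled to the library and deposited as log2 RPM, neither divided by length nor corrected for input. The sample descriptions list 2 replicates per histone and input column and the study's text 3. The low values lay on the steps of a mean of 2 libraries, so ChIP-seq depths and counting intervals assume 2, and the columns were used as the authors' means. All columns were matched to a sample by name (0 unmatched). Low values lay on whole-read steps, which gave the depths: RNA libraries held 16587860 to 36589088 reads on genes. Genes without a read were set to 0.

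Values were returned to RPM, and differences were taken on log2(RPM + 0.1), which understates the change of low values. Tests used limma 3.58.1 (trend) in R 4.3.3 on all 12 libraries, with Benjamini-Hochberg adjustment at 0.05, over 20608 genes that averaged 0.1 RPM or more. The authors' own gene test, DESeq2 on raw counts, was not used, since the tables hold log2 values. The study calls the RNA libraries biological replicates, and p-values measure the spread between them. Libraries with the same number deviated together: the correlation of their deviations had a mean of 0.33 (0.107 to 0.560, 18 of 18 pairs over 0.1), against -0.16 for other pairs, and a fit with the number as a block is given beside the counts. This pairing comes from the data and the numbers in the labels. In a simulation of Null against Null+EZH2 with 200 changed genes among 20608, 95.5% were recovered, with 11 false calls among 202. The simulated libraries were drawn independently, with a fixed spread and without the deviations that same-numbered libraries shared. This checks that the fit runs as intended, and its recovery rate does not carry over to the calls reported here.

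Sequences came from GRCh38 and gene types from GENCODE 44. Intervals of ChIP-seq differences cover counting error only. Windows, lists and tests were chosen with earlier results of these data known. Named genes were the 10 windows with the most H3K4me1 and the 10 with the most H3K27ac in WT ESCs, the 5 with the largest differences of either mark in each direction between Null and Null+EZH2 (at least 2 RPM in one line), the 5 genes that rose and the 5 that fell most in RNA among called genes that averaged 1 RPM or more and whose libraries did not overlap, those on the lists, and the 3 on either side of the H3K4me1 threshold. SEPT9, which the table lists as a date, was named from the label of its window. A few items that these rules select are not reported here. The other tools were Python 3.11.15, pandas 2.3.3, numpy 2.4.6, scipy 1.17.1 and matplotlib 3.10.9.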

Additional observations from a re-analysis of the deposited data

How the results depend on the processing

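Between Null and Null+EZH2 ESCs the median H3K4me1 difference of 0.05 became -0.0585 when centred on the gene names outside the 1681 windows and 0.0756 with a log2 threshold of 3 on H3K4me1 (166 windows). The H3K27ac difference of 0.22 became 0.176 with a pseudocount of 1 RPM, 0.0829 when centred, 0.194 with that threshold and 0.291 in genes with no other marked window. That of H3K27me3 (-0.83) became -0.44 with that pseudocount, -0.317 when centred, and -0.959 in genes with no other marked window, and that of H3K4me3 (-0.14) became -0.114 with it and -0.185 when centred. With a log2 threshold of 3 on H3K27ac 0% of the windows passed in WT ESCs, and the cause of these shifts was not tested.

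With the library number as a replicate block, 117 genes rose and 48 fell in Null relative to Null+EZH2, 18 and 49 in Het relative to WT, and 93 and 289 in Null+EZH2 relative to WT ESCs. A filter at 1 RPM left 23 and 5 of 937 in the first comparison, against 221 and 67 of all 15499 genes. No filter left 18 of 1681 that rose, against 343 of all 35805 genes. Without a filter 0 genes rose and 5 fell in Het relative to WT, against 2 and 44 of all 35805 genes. Without it 29 rose in Null+EZH2 relative to WT, against 463 of all. After rescaling 5 rose in Het ESCs, against 53 of all 20608 genes. Leaving out 1 library at a time gave 6 to 69 genes that rose and 2 to 9 that fell in the first comparison, the lowest without Null replicate 2 and without Null+EZH2 replicate 2. In Null relative to WT, leaving out 1 library gave 152 to 185 and 174 to 250 (267 fell with all libraries, 174 without Null replicate 2). Over all genes the fits at these ends gave 1796 and 2294 that rose, and 2343 and 3374 that fell. Leaving out 1 library gave 0 to 17 and 7 to 56 in Het relative to WT ESCs. Both were lowest without WT replicate 2 and highest without Het replicate 3. In Null+EZH2 relative to WT ESCs it gave 22 to 63 and 62 to 124. Both were lowest without Null+EZH2 replicate 2 and highest without Null+EZH2 replicate 3. Over all genes tested the counts of both comparisons were highest in the same fits. Their lowest counts came from the same fits for genes that rose, and from other fits for genes that fell. These swings were therefore not particular to genes with a window. Leaving out chromosome 17, chosen after seeing the data, kept every count within 1.5 times and every median within its spread. For single named genes, 2448 results kept their side of the threshold, 124 lost it and 44 newly passed. The sign changed in 160 of these 2616, none of them in a gene called with all libraries and the settings used throughout. The depth of the WT H3K4me3 library (3.43 M reads) limits which windows count as free of that mark.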
